A study of Homo sapiens with 6 samples.

Results

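Sorting nexins, vacuolar protein sorting (VPS) proteins and clathrin adaptors form the machinery that sorts receptors at the endosome and the trans-Golgi network. The genes described here were chosen by name: every row of the gene table whose symbol was SNX or VPS followed by a number, every large, medium or small subunit of the adaptor complexes AP-1 to AP-5, the clathrin chains CLTA, CLTB and CLTC, and GGA1, GGA2 and GGA3. This rule, which used no measured value, found 98 of the 14959 genes in the table. They comprised 29 sorting nexins, 35 VPS genes, 28 adaptor subunits, 3 clathrin chains and 3 GGA genes. All members were grouped by complex or protein family, which gave 16 groups, and 3 VPS genes (VPS45, VPS72 and VPS9D1) were placed in none of them.

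The study asked which transcripts change when miR-204-5p is raised in UM-SCC1, a long-established human cell line from a squamous cell carcinoma of the head and neck. Cells of this 1 line received either synthetic mimics of miR-204-5p or control mimics, and RNA was collected 48 h later. Each group held 3 libraries, described in the deposited design as independent experiments. No untransfected cells were analysed here, and the level of miR-204-5p itself is not measured by these libraries.

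An endosome receives cargo from the plasma membrane and the Golgi and sends it either back or on to the lysosome. Retromer (VPS26, VPS29 and VPS35) and the sorting nexins with a membrane-bending BAR domain pull receptors into return tubules, and retriever does the same for another set of cargo. The ESCRT complexes fold ubiquitinated receptors into the vesicles of the multivesicular body, HOPS and CORVET tether endosomes and lysosomes, and GARP and EARP tether the vesicles that come back. The AP complexes and the GGA proteins link cargo to a coat, which for AP-1, AP-2 and the GGA proteins is made of clathrin. The mannose 6-phosphate receptors, which carry newly made lysosomal enzymes, are the classic cargo of AP-1, the GGA proteins and retromer.

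A microRNA recognises its targets mainly through its seed, bases 2 to 8, and the mature miR-204-5p (RefSeq, GRCh38.p14, chr9:70810031-70810052, minus strand) is printed first, with the seed in capitals, because all the matches below derive from it. Below it stand the 30 bases around the match in 7 members with an 8mer, the longest class of match, which pairs with the seed and has an A opposite base 1; capitals mark the 8mer AAAGGGAA. All 7 lie in the 3′ UTR of a protein-coding transcript of GENCODE 29 (hg38).
hsa-miR-204-5p: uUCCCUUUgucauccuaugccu
AP1S1: aaatatgtcaggttAAAGGGAAaaggtgtt
AP2A2: taaatctacaaattAAAGGGAAattagaag
AP3M1: ttattaaggtagtaAAAGGGAAcattactt
GGA2: gagatgataggcctAAAGGGAActgtcttc
SNX13: cctgccacttccttAAAGGGAActtttctt
CLTC: gtatctaaagatcaAAAGGGAAaaaaggca
VPS35: aagctccacctcttAAAGGGAAaatttata

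The match of AP1S1 lies at chr7:101160910-101160917 on the plus strand, in exon 5, and that of AP2A2 at chr11:1010907-1010914 on the plus strand, in exon 22. AP3M1 has its match at chr10:74123036-74123043 on the minus strand in exon 9, and GGA2 at chr16:23466520-23466527 on the minus strand in exon 17. The SNX13 match, at chr7:17794940-17794947 on the minus strand in exon 25, is not part of the transcript under which the gene is listed. The match of CLTC lies at chr17:59696656-59696663 on the plus strand in exon 32, and that of VPS35 at chr16:46658900-46658907 on the minus strand in exon 17. The first 5 of these genes were lower with miR-204-5p mimics and the other two were not called, as described below.

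Expression was given by the authors as FPKM, fragments scaled by transcript length and by the number of mapped fragments, which allows levels of different genes to be compared. Changes are log2 fold changes of FPKM + 1, with miR-204-5p mimics over control mimics, tested with limma over all 14959 genes, and a gene was called at a Benjamini-Hochberg adjusted p under 0.05. Because 1 is added to each value, the fold change of a gene near 1 FPKM is understated. In bulk RNA, fewer expressing cells and less RNA per cell cannot be told apart. Over all genes, Spearman correlations between libraries were 0.990 to 0.991 within groups and 0.973 to 0.976 between groups. The 7 squamous epithelial markers summed to 678 to 681 FPKM with miR-204-5p mimics and 712 to 749 FPKM in controls, with KRT6A low (0.970 to 3.36 FPKM). SFN was the largest part of this sum (284 to 357 FPKM over the 6 libraries). Relative to their level single markers spread more than the sum, such as TP63 (23.9 to 57.6 FPKM) and KRT5 (118 to 184 FPKM). Of 8 markers of other cell types, 6 were listed, and their sum was 10.3 to 11.9 FPKM against 8.86 to 10.0 FPKM, nearly all of it COL1A1 (8.04 to 10.52 FPKM). The part of these shifts in the results was not tested.

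Most of the sorting machinery was expressed in these cells. In mean over the 6 libraries 94 members reached 1 FPKM, and AP1S2, AP3B2, SNX20 and SNX31 stayed below it. With miR-204-5p mimics 22 members fell and 10 rose, and 66 were not called. The called share was 32.7%, against 40.8% of all genes. The share called lower was 22.4%, against 16.8% of all genes, and the share called higher was 10.2%, against 23.9%. The 3 libraries of each group did not overlap for 47 members (31 with treated libraries lower, 16 with treated libraries higher), a share of 48%, against 53.6% of all genes. Members moved by a median of 0.14 in absolute log2 fold change and all genes by 0.18. Among those called, the medians were 0.30 for members and 0.37 for all genes. A change of at least 0.5 was reached by 6 of the 32 called members, against 1789 of all 6098 called genes. The median signed log2 fold change was -0.04 for members and 0.03 for all genes. The plot of all members by complex shows these values, with subunits called in opposite directions inside 8 of the groups.

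**Figure D1:**
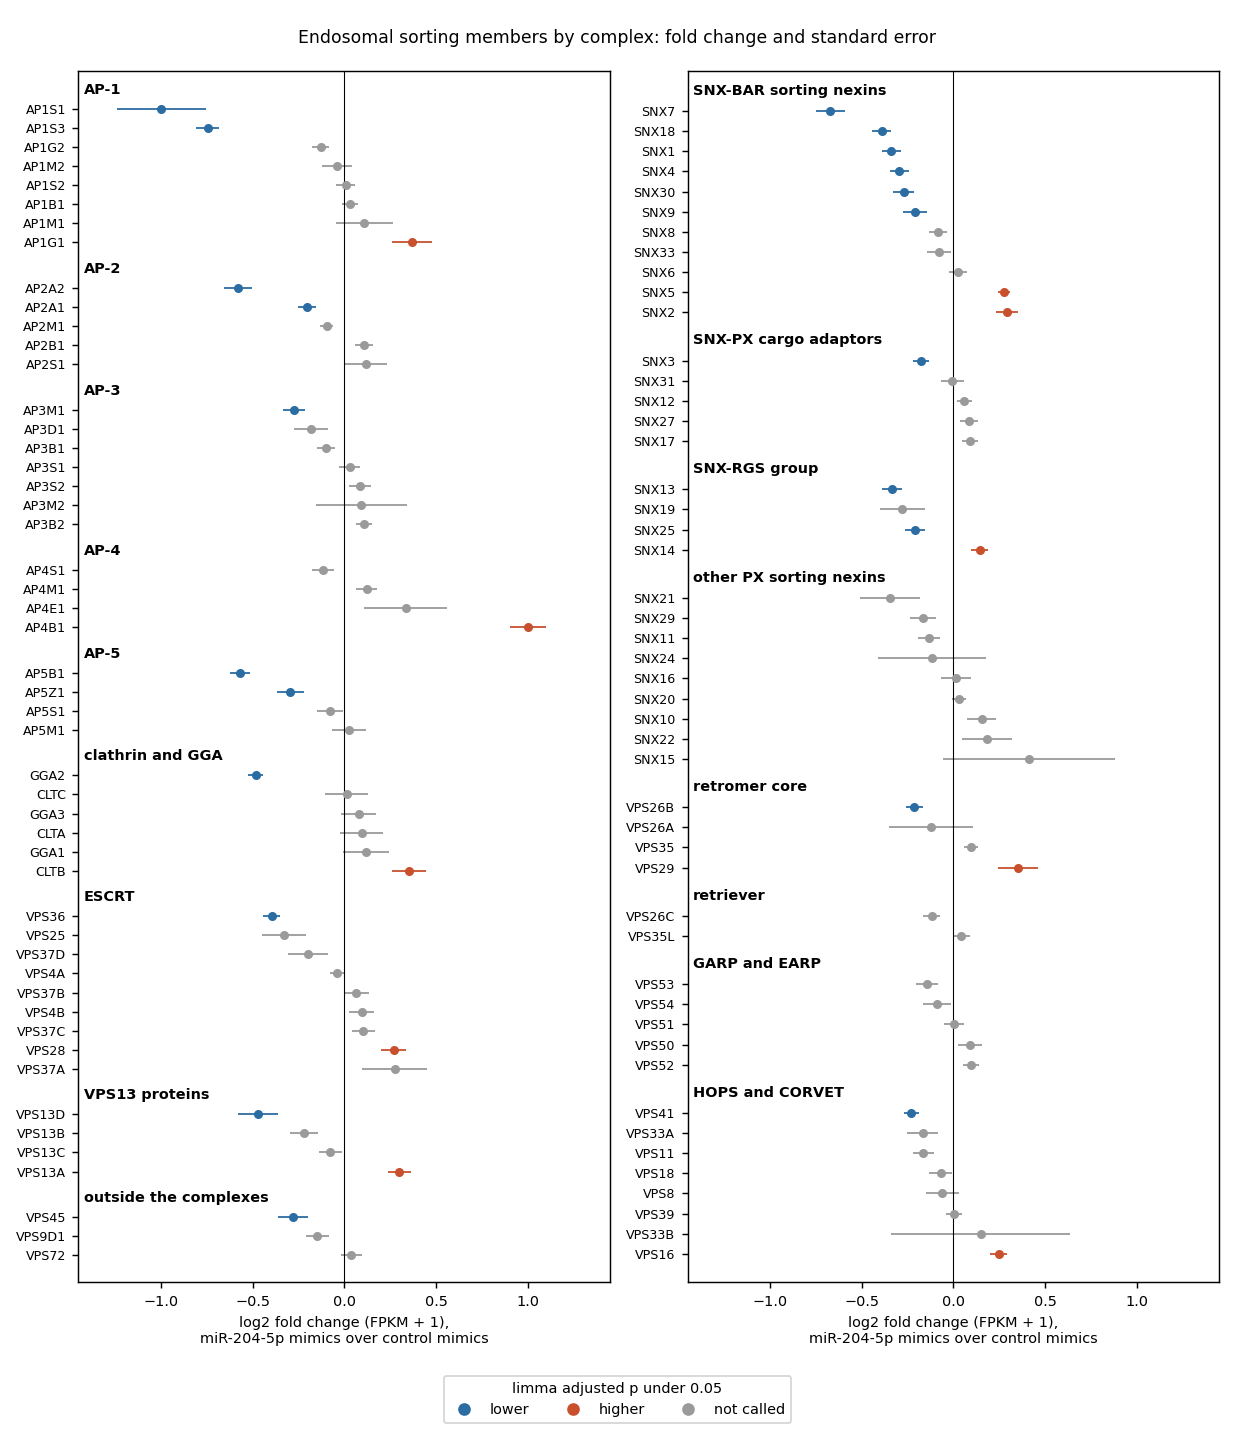
Log2 fold change of FPKM + 1 (miR-204-5p mimics over control mimics) of all 98 members, grouped by complex. Points are limma estimates, bars their standard errors, and colours the call at an adjusted p under 0.05; AP1S1 (-0.997) and AP4B1 (1.00) lie farthest from 0, and among SNX-BAR sorting nexins 6 are lower and 2 higher.

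AP-1 is the adaptor of the trans-Golgi network and recycling endosomes. Of its 8 genes 2 fell and 1 rose (37.5% called, against 40.8% of all genes). Both decreases were in genes of the small subunit, sigma. AP1S1, which encodes the sigma 1A chain, measured 38.6, 19.2 and 35.8 FPKM with miR-204-5p mimics and 61.3, 58.6 and 61.9 FPKM in controls. All treated libraries were below all controls, and replicate 2 was the lowest by a wide margin. The log2 fold change was -0.997 ± 0.244 (SE, n = 3 per group, limma adjusted p = 0.018). Without control replicate 1 or 3 the adjusted p of AP1S1 was 0.053 and 0.052, and without any 1 library the log2 fold change ran from -1.18 to -0.69, the latter without treated replicate 2.

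The sigma 1C gene AP1S3 fell too, at a much lower level. Its libraries measured 0.56, 0.62 and 0.66 FPKM with miR-204-5p mimics and 1.85, 1.54 and 1.72 FPKM in controls, with no overlap. The log2 fold change was -0.75 ± 0.06 (limma adjusted p = 2.9e-04). As a ratio of mean FPKM the decrease was larger than that of AP1S1 (0.359 against 0.514), and with a pseudocount of 0.1 the log2 fold changes were -1.34 and -1.02. AP1S2, the sigma 1B gene, was low in both groups, with means of 0.88 and 0.87 FPKM. AP1G1, the gamma 1 chain, rose from 14.6 ± 1.8 to 19.1 ± 2.1 FPKM (SD, n = 3 per group, log2 fold change 0.37 by limma, adjusted p = 0.035). This call was lost without treated replicate 2 or 3 or control replicate 1 or 3, with adjusted p from 0.071 to 0.107, and with equal sums (0.065). The beta 1 (AP1B1), gamma 2 (AP1G2) and mu chains (AP1M1 and AP1M2) were not called, with log2 fold changes from -0.13 to 0.11.

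The alpha chains of AP-2, the adaptor of clathrin-mediated endocytosis at the plasma membrane, were both lower. Of the 5 AP-2 genes these 2 were called (40%, against 40.8% of all genes). AP2A2 measured 9.02, 8.49 and 8.58 FPKM with miR-204-5p mimics and 13.2, 12.4 and 15.03 FPKM in controls, with no overlap. Its log2 fold change was -0.58 ± 0.07 (limma adjusted p = 0.0015). AP2A1, the more abundant alpha chain, fell from 58.1 ± 1.6 to 50.3 ± 2.7 FPKM (log2 fold change -0.21 by limma, adjusted p = 0.016). Without control replicate 1 the adjusted p of AP2A1 was 0.054. The other AP-2 chains, AP2B1 (beta), AP2M1 (mu) and AP2S1 (sigma), were not called, with log2 fold changes from -0.10 to 0.12.

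AP-3 carries membrane proteins to lysosomes and related organelles. Of its 7 subunit genes 1 passed the test (14.3%, against 40.8% of all genes). AP3M1, the ubiquitous mu chain, measured 9.89, 11.5 and 10.8 FPKM with miR-204-5p mimics and 13.0, 13.1 and 13.4 FPKM in controls. The groups did not overlap, and the log2 fold change was -0.27 ± 0.06 (limma adjusted p = 0.012). The exons of AP3M1 overlap those of VCL on the opposite strand over 18.8% of their length. The log2 fold change of VCL was -0.07. AP3M2, the paralogue of AP3M1, also holds an 8mer. It measured 1.78, 1.54 and 1.87 FPKM with miR-204-5p mimics against 1.04, 2.92 and 1.10 FPKM in controls. Control replicate 2 stood above all other libraries, and the log2 fold change was 0.09 ± 0.25 (limma adjusted p = 0.80). Without control replicate 2 it was 0.40, with an adjusted p of 0.015. The beta, delta and sigma chains of AP-3 were not called.

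AP-4 and AP-5 are adaptors that work without clathrin, and they held the largest called increase and 2 decreases. In AP-4 1 of 4 genes rose (25% called) and in AP-5 2 of 4 fell (50% called), against 40.8% of all genes. AP4B1, the beta chain of AP-4, measured 5.78, 5.28 and 5.98 FPKM with miR-204-5p mimics and 1.94, 2.71 and 2.41 FPKM in controls. Every treated library was above every control, and the log2 fold change was 1.00 ± 0.10 (limma adjusted p = 5.5e-04). The exons of AP4B1 overlap those of DCLRE1B on the opposite strand over 1.14% of their length, and the log2 fold change of DCLRE1B was 0.32. The epsilon chain AP4E1 (log2 fold change 0.33), the mu chain AP4M1 (0.12) and the sigma chain AP4S1 (-0.12) were not called.

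AP5B1, the beta chain of AP-5, a late endosomal adaptor, measured 9.46, 9.59 and 9.41 FPKM with miR-204-5p mimics and 13.7, 14.5 and 15.6 FPKM in controls. The treated libraries were close to each other and below all controls, and the log2 fold change was -0.57 ± 0.06 (limma adjusted p = 5.2e-04). AP5Z1, the zeta chain, fell from 22.1 ± 1.7 to 17.9 ± 1.4 FPKM (log2 fold change -0.29 by limma, adjusted p = 0.021). Without treated replicate 2 or control replicate 1 its adjusted p was 0.055 and 0.057. AP5M1 and AP5S1 were not called.

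**Figure D2:**
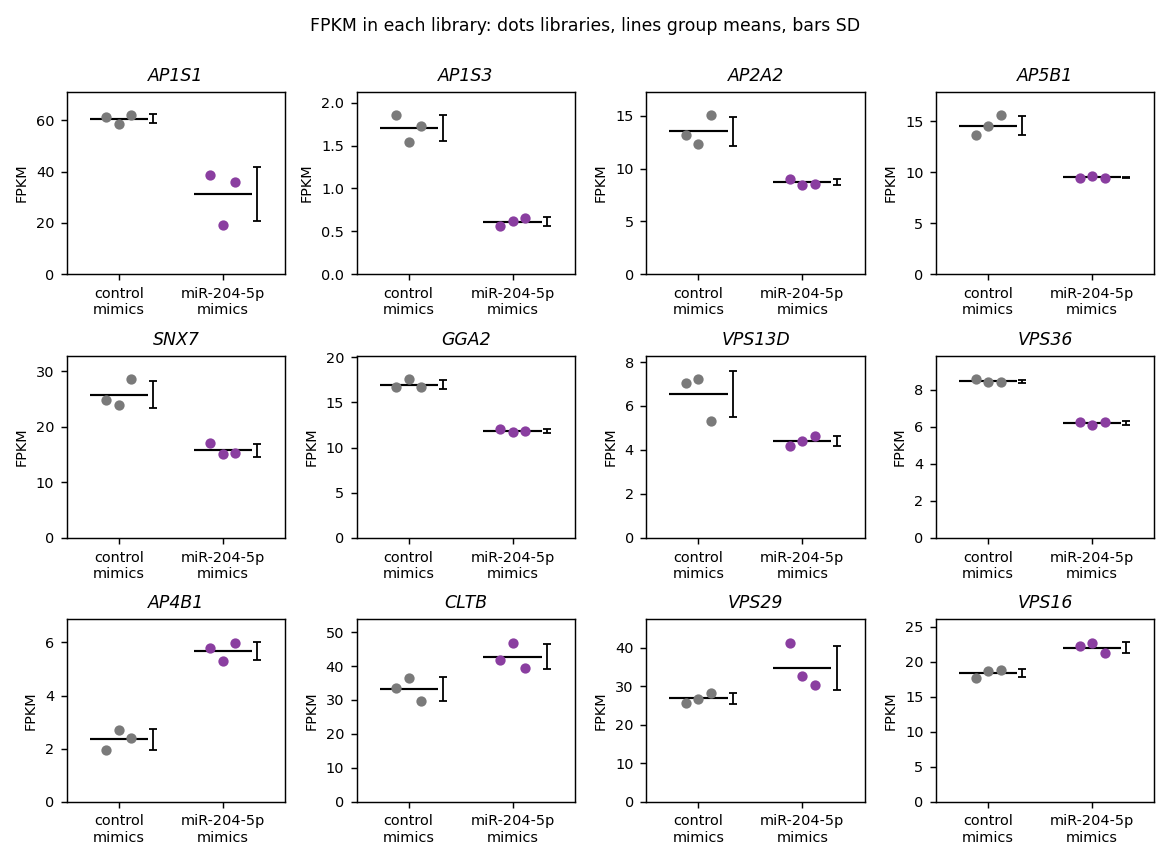
FPKM in each library (vertical axes, each from 0) of 12 called members, with control mimics at left and miR-204-5p mimics at right. Dots are libraries, lines group means and bars SD with n = 3 per group; the groups do not overlap in any panel, and AP1S1 in treated replicate 2 (19.2 FPKM) lies apart from the other treated libraries.

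Of the 3 clathrin chains 1, a light chain, passed the test (33.3%, against 40.8% of all genes). CLTB, the light chain b, measured 41.9, 46.8 and 39.5 FPKM with miR-204-5p mimics and 33.7, 36.6 and 29.6 FPKM in controls. The groups did not overlap, and the log2 fold change was 0.35 ± 0.09 (limma adjusted p = 0.023). The CLTB call was lost without treated replicate 1 or 2 or control replicate 1 or 3, with adjusted p from 0.052 to 0.069.

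CLTA, the light chain a, measured 40.004, 38.2 and 39.7 FPKM with miR-204-5p mimics and 30.04, 39.5 and 41.7 FPKM in controls (log2 fold change 0.09 ± 0.12 by limma, adjusted p = 0.56). CLTC, the heavy chain, measured 63.6, 67.4 and 53.0 FPKM against 70.0, 56.4 and 56.0 FPKM. Its groups overlapped, and the gene holds an 8mer (log2 fold change 0.01 ± 0.12 by limma, adjusted p = 0.94). The sign of the CLTC value changed under all 3 alternative scalings.

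GGA2, one of the monomeric adaptors that carry mannose 6-phosphate receptors from the trans-Golgi network, measured 12.1, 11.7 and 11.8 FPKM with miR-204-5p mimics and 16.7, 17.6 and 16.7 FPKM in controls. All treated libraries were below all controls (log2 fold change -0.48 ± 0.04 by limma, adjusted p = 3.4e-04). GGA1 (log2 fold change 0.12) and GGA3 (0.08) were not called, so 1 of the 3 GGA genes was called (33.3%, against 40.8% of all genes).

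Among the 11 sorting nexins with a BAR domain 6 fell and 2 rose, 72.7% against 40.8% of all genes. The 6 were SNX7, SNX18, SNX1, SNX4, SNX30 and SNX9, with log2 fold changes from -0.67 to -0.21, and the 2 were SNX2 (0.29) and SNX5 (0.28). SNX7, a partner of SNX4 in recycling, measured 17.2, 15.1 and 15.2 FPKM with miR-204-5p mimics and 24.8, 24.0 and 28.6 FPKM in controls, without overlap. Its log2 fold change was -0.67 ± 0.08 (limma adjusted p = 0.0011). SNX4 fell from 18.7 ± 0.9 to 15.01 ± 0.56 FPKM and SNX30, the other SNX4 partner, from 8.25 ± 0.20 to 6.67 ± 0.39 FPKM, with limma adjusted p of 0.0050 and 0.010.

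SNX1 and SNX2, close paralogues that pair with SNX5 or SNX6 in the retromer-linked coat, went opposite ways. SNX1 fell from 9.34 ± 0.35 to 7.17 ± 0.18 FPKM (limma adjusted p = 0.0026), and SNX2 rose from 22.4 ± 1.2 to 27.7 ± 1.8 FPKM (limma adjusted p = 0.011). SNX5 rose from 60.3 ± 0.8 to 73.1 ± 1.4 FPKM (limma adjusted p = 0.0010), while SNX6 had means of 31.9 and 32.6 FPKM and was not called. Of the nexins that act in endocytosis, SNX18 fell from 2.50 ± 0.04 to 1.67 ± 0.03 FPKM (limma adjusted p = 0.0017) and SNX9 from 9.03 ± 0.37 to 7.69 ± 0.55 FPKM (limma adjusted p = 0.040). The SNX9 call was lost without any 1 of 5 libraries (all but treated replicate 2), with adjusted p from 0.056 to 0.113. SNX8 and SNX33 were not called.

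The cargo adaptor nexins changed less, with 1 of 5 called (20%, against 40.8% of all genes). SNX3, the retromer adaptor for Wntless, measured 41.7, 43.8 and 45.6 FPKM with miR-204-5p mimics and 50.6, 50.04 and 47.9 FPKM in controls. The groups did not overlap (log2 fold change -0.18 ± 0.05 by limma, adjusted p = 0.021). Without treated replicate 1 or 2 or control replicate 1 or 2 the adjusted p was 0.052 to 0.067. SNX12, SNX17 (the retriever adaptor), SNX27 (the PDZ adaptor of retromer) and SNX31 were not called, with log2 fold changes from -0.01 to 0.09.

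In the SNX-RGS subfamily (SNX13, SNX14, SNX19 and SNX25), 2 of 4 fell and 1 rose, 75% called against 40.8% of all genes. SNX13 measured 2.96, 3.09 and 2.88 FPKM with miR-204-5p mimics and 4.11, 3.97 and 3.97 FPKM in controls. These groups were well apart (log2 fold change -0.34 ± 0.06 by limma, adjusted p = 0.0042). SNX25 was lower (log2 fold change -0.21 by limma, adjusted p = 0.022) and SNX14 higher (0.14, limma adjusted p = 0.046). Leaving out 1 library ended the SNX25 call for all but treated replicate 3 (adjusted p 0.052 to 0.071) and the SNX14 call for all but control replicate 3 (0.059 to 0.134). The SNX14 call was also lost under all 3 other scalings (adjusted p 0.074 to 0.150) and without the trend (0.054).

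None of the 9 other PX nexins passed the limma test, and none had an unadjusted p under 0.05, where 40.8% of all genes were called. SNX15 had the largest estimate there, with 9.64, 11.4 and 13.8 FPKM with miR-204-5p mimics and 12.3, 13.8 and 3.21 FPKM in controls. Control replicate 3 alone was low (log2 fold change 0.41 ± 0.47 by limma, adjusted p = 0.52), and without it the value was -0.17. SNX15 shares 39.4% of its exon length with the read-through gene ARL2-SNX15 on the same strand, so reads of the pair could be divided between them.

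In the retromer core 1 of 4 genes fell and 1 rose, 50% called against 40.8% of all genes. VPS26B fell from 18.7 ± 0.9 to 16.01 ± 0.36 FPKM (log2 fold change -0.21 by limma, adjusted p = 0.012). VPS29 measured 41.2, 32.7 and 30.4 FPKM with miR-204-5p mimics and 25.5, 26.7 and 28.3 FPKM in controls. All treated libraries were higher, replicate 1 most of all (log2 fold change 0.35 ± 0.11 by limma, adjusted p = 0.043), but the call was lost without treated replicate 2 or any 1 control (adjusted p 0.069 to 0.118). Without treated replicate 1 the log2 fold change of VPS29 was 0.23, and with equal medians or quantile normalization its adjusted p was 0.060 and 0.0505.

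VPS35, the scaffold of retromer and another holder of an 8mer, measured 29.6, 30.2 and 28.8 FPKM with miR-204-5p mimics and 27.9, 27.0 and 27.9 FPKM in controls. Its groups did not overlap, with the treated libraries higher, and it was not called (log2 fold change 0.10 ± 0.04 by limma, adjusted p = 0.084). VPS26A spread widely in controls, from 14.9 to 28.8 FPKM. In retriever, VPS26C measured 16.9, 18.3 and 17.5 FPKM against 19.4, 19.6 and 18.4 FPKM (log2 fold change -0.12 ± 0.05 by limma, adjusted p = 0.087), and VPS35L was not called either (0.04).

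Of the tethering complexes, GARP and EARP held no called subunit among 5 by limma, where 40.8% of all genes were called. Among the 5, 1 had an unadjusted p under 0.05. This was VPS53, with 5.99, 6.59 and 6.47 FPKM with miR-204-5p mimics and 6.85, 7.44 and 7.09 FPKM in controls (log2 fold change -0.15 ± 0.06 by limma, adjusted p = 0.095). In the HOPS and CORVET group 1 of 8 genes rose and 1 fell, 25% called against 40.8% of all genes. VPS33B was counted in this group, though it is no established subunit of either complex. VPS16, a core subunit shared by both complexes, measured 22.3, 22.7 and 21.2 FPKM with miR-204-5p mimics and 17.7, 18.7 and 18.9 FPKM in controls, all treated libraries being higher (log2 fold change 0.25 ± 0.05 by limma, adjusted p = 0.0060). VPS16 shares 16.6% of its exon length with PTPRA on the same strand, and the log2 fold change of PTPRA was -0.26. VPS41, a subunit of HOPS alone, fell from 15.7 ± 0.5 to 13.2 ± 0.2 FPKM (log2 fold change -0.23 by limma, adjusted p = 0.0061). VPS33B varied from 2.65 to 8.45 FPKM within the treated group and shares 52.1% of its exon length with AC068831.7 on the same strand, so its reads could be divided between the pair.

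In the ESCRT machinery 1 of 9 members fell and 1 rose, 22.2% called against 40.8% of all genes. VPS36, an ESCRT-II subunit that binds ubiquitin, measured 6.24, 6.09 and 6.25 FPKM with miR-204-5p mimics and 8.56, 8.41 and 8.42 FPKM in controls. The groups were far apart relative to their spread (log2 fold change -0.40 ± 0.05 by limma, adjusted p = 0.0010). VPS25, the ESCRT-II partner of VPS36, had means of 17.4 and 22.2 FPKM and was not called (log2 fold change -0.33 by limma, adjusted p = 0.069). VPS28, an ESCRT-I subunit, rose from 24.0 ± 0.8 to 29.2 ± 2.6 FPKM (log2 fold change 0.27 by limma, adjusted p = 0.020), and this call was lost without control replicate 2 or 3 (adjusted p 0.053 and 0.063). The ATPases VPS4A and VPS4B and the VPS37 genes were not called.

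The VPS13 genes encode large lipid transfer proteins at membrane contacts, and 1 fell and 1 rose (50% called, against 40.8% of all genes). VPS13D measured 4.17, 4.402 and 4.61 FPKM with miR-204-5p mimics and 7.04, 7.21 and 5.34 FPKM in controls, control replicate 3 being the nearest to the treated libraries (log2 fold change -0.47 ± 0.11 by limma, adjusted p = 0.014). VPS13A rose from 5.77 ± 0.22 to 7.34 ± 0.48 FPKM (log2 fold change 0.30 by limma, adjusted p = 0.010), and VPS13B and VPS13C were not called. Outside the complexes, VPS45, the Sec1/Munc18 protein of early endosome fusion, measured 9.58, 8.66 and 7.76 FPKM with miR-204-5p mimics and 10.1, 10.7 and 11.3 FPKM in controls (log2 fold change -0.28 ± 0.08 by limma, adjusted p = 0.035). Without treated replicate 2 or 3 or control replicate 2 or 3 its adjusted p was 0.078 to 0.101.

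Subunits with paralogues can replace each other in a complex, so the FPKM of paralogues were also summed, with the sums chosen after the single values were seen. With 3 libraries against 3, the exact permutation test cannot go below p = 0.10. The AP-1 sigma chains together measured 32.7 ± 10.4 FPKM with miR-204-5p mimics and 63.2 ± 1.9 FPKM in controls (SD, n = 3, exact permutation p = 0.10), AP1S1 being 95.9% of the control sum. The AP-2 alpha chains summed to 59.0 ± 2.8 and 71.7 ± 2.3 FPKM (exact permutation p = 0.10). In both families the groups did not overlap, which followed from the single values. AP1S1 made up nearly all of the AP-1 sigma sum, and both AP-2 alpha chains were lower on their own. Whether a paralogue offsets a lower chain was therefore not tested by these sums.

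Other families summed differently. The clathrin light chains reached 82.0 ± 2.8 FPKM with miR-204-5p mimics and 70.4 ± 6.3 FPKM in controls (exact permutation p = 0.10). SNX1 and SNX2 together gave 34.8 ± 1.7 and 31.7 ± 0.9 FPKM, and the share of SNX1 in that sum was 20.6% ± 1.5 against 29.5% ± 1.8. SNX5 and SNX6 together gave 106 ± 2 and 92.2 ± 0.5 FPKM. In these families too the groups did not overlap. CLTB, SNX2 and SNX5 were each called higher on their own, so these sums are no separate test. The sums of the GGA genes (41.8 and 44.8 FPKM), the VPS26 genes (34.7 and 39.8 FPKM) and the AP-1 gamma chains (66.6 and 66.5 FPKM) overlapped between groups.

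**Figure D3:**
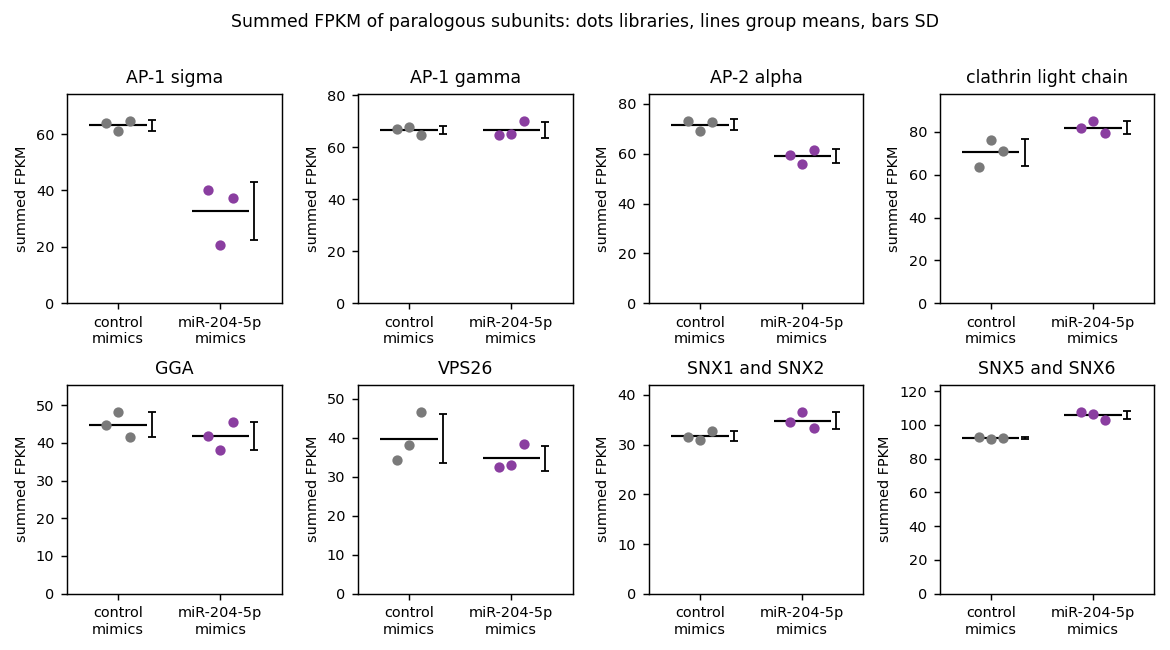
Summed FPKM of paralogous subunits in each library (vertical axes, each from 0), with control mimics at left and miR-204-5p mimics at right. Dots are libraries, lines group means and bars SD with n = 3 per group; the AP-1 sigma and AP-2 alpha sums are lower in all treated libraries, the light chain, SNX1 and SNX2 and SNX5 and SNX6 sums higher, and the other three overlap.

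To see how the changes lay against the seed, the longest 3′ UTR of a protein-coding transcript of each gene was searched on the transcript strand for the 8mer AAAGGGAA, then the 7mer-m8 AAAGGGA, then the 7mer-A1 AAGGGAA, each gene counting once under the longest match it held. A match was found in 24 members (24.5%) and in 26.6% of all genes. By limma 10 of these 24 members fell and none rose (11 and 1 at an unadjusted p under 0.05), and the median log2 fold change was -0.16. Among all genes with a match 27% were called lower and 16.4% higher. Of the 74 members without a match 12 fell and 10 rose, with a median of 0.01, and among all genes without one 13.4% were called lower and 27.2% higher.

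The 8mer class held 8 members, of which AP1S1, AP2A2, GGA2, SNX13 and AP3M1 fell and CLTC, VPS35 and AP3M2 were not called (median log2 fold change -0.30, over all 1261 genes with an 8mer -0.08). The share called lower was 62.5% of these 8 members and 33.5% of all genes with an 8mer. The 5 windows of the lower genes and the 2 of the genes not called, printed above, hold the same 8 letters. Among 9 members with a 7mer-m8 VPS13D, VPS41 and SNX9 fell, and among 7 with a 7mer-A1 VPS36 and SNX18 fell. These shares of 33.3% and 28.6% lay near those of all genes with the same class of match, 25.6% and 22.3%. The matches of SNX9 and SNX18, like that of SNX13, are not part of the transcripts under which these genes are listed. With all annotated 3′ UTRs of a gene joined, 29 members (29.6%) held a match, against 28.7% of all genes. Of the 29, 11 fell and none rose, the added lower gene being AP1S3. Among all genes with a joined match 26.5% were called lower and 16.6% higher. The joined 8mer class held 10 members, with AP1S2 and VPS37A added and neither called. Its share called lower was 50%, against 32.3% of all genes in that class. The median log2 fold change of these 10 was -0.13, over all genes in that class -0.07. A match in these letters does not show that the site is bound.

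**Figure D4:**
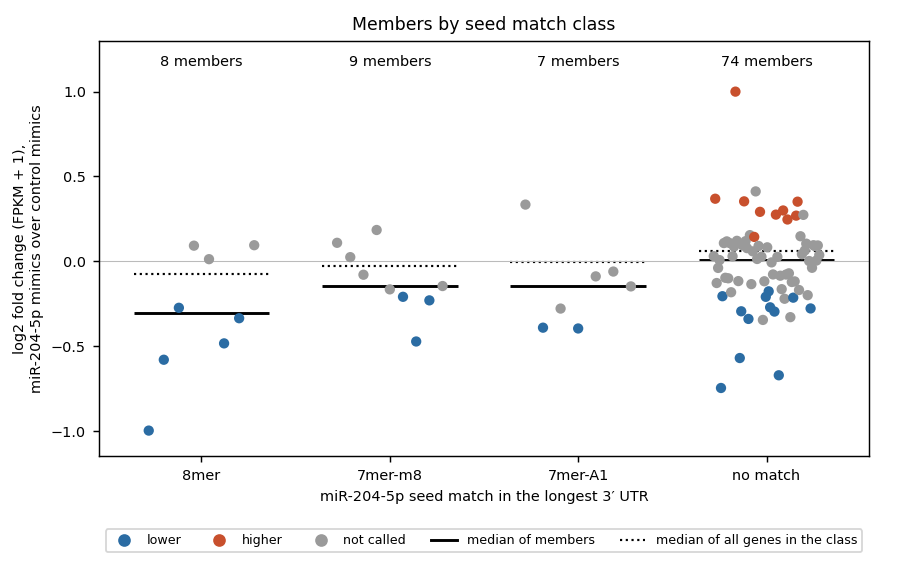
Log2 fold change of FPKM + 1 of the 98 members (vertical axis) by the class of miR-204-5p seed match in the longest 3′ UTR (horizontal axis). Points are members coloured by call, solid lines member medians and dotted lines the medians of all genes in the class; all 10 members called higher are in the class without a match.

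Among the 12 lower members without such a match, 4 held one of the same letters in their longest coding sequence (AP1S3, SNX1, SNX4 and SNX7), where 18 of all 98 members (18.4%) and 23% of all genes did. SNX7 and AP5B1, whose log2 fold changes were -0.67 and -0.57, had no match in the 3′ UTR, and AP5B1 had none in the coding sequence either. Of the 10 higher members SNX2 and VPS13A had a coding match.

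The proteins that work with this machinery were read from 5 lists of genes that are no members. Of 93 genes 91 were in the table, of which 22 fell and 19 rose (45.1% called, against 40.8% of all genes). Among 18 genes of WASH and the CCC complex, which drive actin assembly and retriever recycling, 3 fell and 4 rose, and of 22 ESCRT partners 4 fell and 6 rose. Of 11 endosomal tether and lipid kinase partners 2 fell and 4 rose, and of 26 clathrin coat partners 5 fell and 5 rose. Within these 4 lists only CHMP3 and COMMD10 were called with an absolute log2 fold change of at least 0.8.

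CHMP3, a subunit of ESCRT-III, measured 15.5, 17.2 and 15.9 FPKM with miR-204-5p mimics and 40.8, 40.6 and 41.9 FPKM in controls. The groups were far apart (log2 fold change -1.30 ± 0.05 by limma, adjusted p = 3.1e-05), and CHMP3 shares 10.8% of its exon length with RNF103-CHMP3 on the same strand. COMMD10, a CCC subunit, rose from 4.202 ± 0.846 to 8.17 ± 0.59 FPKM (log2 fold change 0.83 by limma, adjusted p = 0.0024).

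Of 14 genes for receptors and lysosomal proteins that the machinery carries, 8 fell and none rose by limma (11 and 0 at an unadjusted p under 0.05), where 16.8% of all genes were called lower and 23.9% higher. The list was chosen with M6PR already known to be lower in these data, so its count is not independent evidence of a direction. M6PR, the cation-dependent mannose 6-phosphate receptor, measured 11.3, 14.1 and 10.3 FPKM with miR-204-5p mimics and 53.1, 49.6 and 49.2 FPKM in controls (log2 fold change -2.01 ± 0.10 by limma, adjusted p = 7.0e-05). IGF2R, the cation-independent receptor, measured 8.08, 8.38 and 9.04 FPKM against 21.3, 20.9 and 20.1 FPKM (log2 fold change -1.20 ± 0.05 by limma, adjusted p = 5.2e-05). Neither gene's groups overlapped.

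SORT1, which encodes the sorting receptor sortilin, measured 11.03, 11.92 and 10.95 FPKM with miR-204-5p mimics and 36.6, 35.8 and 35.0 FPKM in controls (log2 fold change -1.58 ± 0.05 by limma, adjusted p = 1.5e-05). LAMP1, a major lysosomal membrane protein, measured 85.9, 85.3 and 89.1 FPKM against 223, 224 and 221 FPKM (log2 fold change -1.35 ± 0.03 by limma, adjusted p = 1.3e-05). Both genes were lower in all 3 treated libraries. Its relative LAMP2 had means of 39.4 and 39.9 FPKM and was not called. Of the 8 lower cargo genes 5 held a seed match in the 3′ UTR (M6PR, IGF2R, LAMP1, SORT1 and ATP7A). Over all genes 26.6% held a match, and 27% of those were called lower. The count of 5 comes from the same list chosen with M6PR known, and whether these matches are bound was not tested. M6PR overlaps PHC1 on the opposite strand over 29.3% of its exon length, and without strand information reads of the pair cannot be told apart; the log2 fold change of PHC1 was 0.59.

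**Figure D5:**
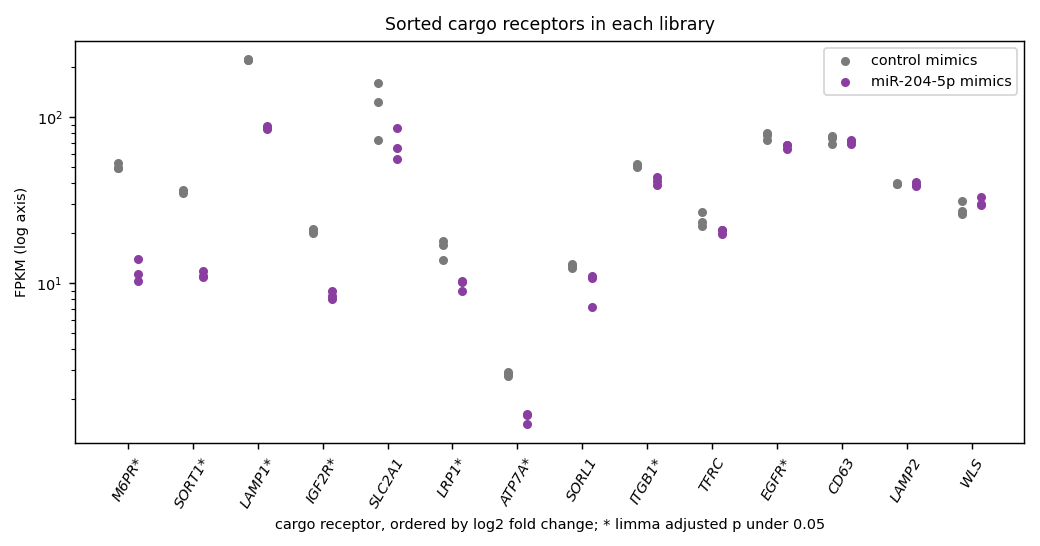
FPKM of 14 cargo genes in each library, on a log axis, ordered by log2 fold change. Grey dots are the 3 control libraries and purple dots the 3 treated libraries, and stars mark genes called at a limma adjusted p under 0.05; M6PR, SORT1, LAMP1 and IGF2R show the widest gaps.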

How the data were processed

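RNA was extracted with a column kit, sequenced on an Illumina platform and, per the labels, processed with HISAT2 and StringTie on hg38, with versions not given in the sources used here. The deposited table holds the authors' FPKM per gene, each row naming 1 transcript, together with the authors' fold changes and p-values from edgeR, which were not used. Whether a value covers the listed transcript alone or the whole gene was not established. FPKM are not counts, so limma 3.58.1 (R 4.3.3, eBayes with trend, two-sided) was applied to log2(FPKM + 1) of all 14959 genes without a filter, after it had been tested on simulated data, and not the edgeR count test of the study.

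The p-values measure the spread between the 3 libraries of a group. No depth was stated. Of the low values 27.9% to 31% lay on whole fragments within 0.02, against 2.54% to 5.17% with a wrong step, which points to about 13100000 to 16400000 fragments per library but does not return counts, and 1 fragment on 1 kb was then worth 0.061 to 0.077 FPKM. Of the listed transcripts 14951 were found in GENCODE 29, 96 of the 98 member transcripts with the same start and end. AP4E1, AP4M1 and SNX29 are listed with a transcript annotated for nonsense-mediated decay, and the exons of 33 members overlap another gene of the table, where the assignment of reads is uncertain. Matches were searched in the longest 3′ UTR, which need not be the one used in these cells.

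Values in every library are given for members called with an absolute log2 fold change of at least 0.5, members with an 8mer, the clathrin chains and, in a complex where none qualified, the member with the largest change. Members described beyond this rule, such as VPS29, were chosen after their values were seen. The members, complexes and lists were chosen with earlier results of these data known. The 2 groups share replicate numbers, but deviations from the group means correlated at -0.04, -0.02 and -0.11 for equal numbers, so no block was used. 1 cargo gene, which was not called, is not reported here and is left out of its list.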

Additional observations from a re-analysis of the deposited data

How the results depend on the processing

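The counts of members called were recomputed under 13 alternatives: a pseudocount of 0.1, a mean FPKM of at least 1, 3 other scalings, no trend, a replicate block and each of 6 libraries left out. Of the 32 calls 20 were kept under all of them (15 lower and 5 higher), and none of the values named reversed while called. Members called lower numbered 17 to 28 and those called higher 6 to 12. When 1 library was left out the lower count ran from 17 to 25 and the higher count from 6 to 12, at 6 without miR-204-5p mimics replicate 2 and without control mimics replicate 1 or 3, where fewer samples entered the fit. With the replicate number as a block 19 members were lower and 7 higher, and 25 of the 32 calls remained; equal numbers did not deviate together, so this fit shares only a label. The weakest calls were SNX14, kept in 3 of 13, VPS29 in 6, and AP1G1, SNX25 and SNX9 in 7. VPS53 was called only with quantile normalization (adjusted p = 0.044) and VPS26C only with equal medians (adjusted p = 0.047).

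Scaling moved the median log2 fold change of all genes from 0.03 to between -7.0e-05 and 0.02, and that of members from -0.04 to between -0.08 and -0.06. Depth limits the members under 1 FPKM most, where a library's value rests on few fragments.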
